A study of Mus musculus with 6 samples.

Results

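The genes described here code for 10 proteins of the growth cone and of the microtubules of growing axons, namely Gap43, Dcx, Stmn1, Stmn2, Stmn3, Stmn4, Map1b, Map2, Mapt and Tubb3. The rule that selects them is their names, with no threshold on a measured value, and all 10 were found among the 53421 genes of the count table. RNA was sequenced from cultured mouse cerebellar granule cells (GCs) after knockdown (KD) of YTHDF2, a protein that binds mRNA carrying the modified base m6A and is known to promote its decay. The question put to these data is whether the mRNAs of the machinery that builds the axon differ in level after YTHDF2 KD.

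All cells came from C57BL/6 mouse pups, with the age given as postnatal day 8 by the sample labels, and were infected with lentivirus and then selected with puromycin, control cells included. The shYthdf2 group holds 3 libraries from cells with a short hairpin RNA against Ythdf2, with the name KD2_3, and the shCtrl group holds 3 libraries from cells with a control hairpin, with the name KDC. Each group has libraries numbered 1, 2 and 4. Only 1 hairpin against Ythdf2 was sequenced, so an effect of the hairpin sequence itself and an effect of YTHDF2 loss cannot be told apart. No separation of axons from cell bodies is described for the sequenced RNA. The study's methods call the 3 libraries of a group biological replicates, without saying which pups or cultures each came from, and p-values measure the spread between these libraries.

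The sample titles give the groups the other way round from the library names. The names were followed, and every direction below would turn if the titles were right. Ythdf2 itself had 499.6, 401 and 499.7 normalized counts in the shYthdf2 libraries 1, 2 and 4 and 617, 839 and 627 in the shCtrl libraries. Its level was therefore 67.3% of shCtrl on average and the groups did not overlap, with a log2 fold change of shYthdf2 against shCtrl (log2FC) at -0.57 (standard error, SE, 0.16). Its adjusted p was 0.125 in edgeR (quasi-likelihood test, p-values adjusted over all genes tested by Benjamini-Hochberg), the test used throughout unless another is named. Normalized counts are read counts per gene scaled by the trimmed mean of M values (TMM) to a common library size.

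A growing axon is led by the growth cone, which pushes actin-based protrusions forward while microtubules extend into it from the axon shaft. Microtubules are polymers of α- and β-tubulin, and their assembly is set by proteins that bind the polymer and stabilize it (Dcx, Map1b, Map2, Mapt) and by proteins of the stathmin family (Stmn1 to Stmn4), which bind free tubulin dimers and favour disassembly. Granule cells are the most numerous neurons of the cerebellum, and their axons become the parallel fibers.

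In the GRCm38 annotation, Gap43 is ENSMUSG00000047261, chr16:42248442-42340651, minus strand. Dcx is ENSMUSG00000031285, chrX:143855842-143933311, minus strand, and the stathmin genes are spread over 4 chromosomes, with Stmn1 at ENSMUSG00000028832, chr4:134468320-134473843, plus strand and Stmn2 at ENSMUSG00000027500, chr3:8509360-8561606, plus strand. Stmn3 is ENSMUSG00000027581, chr2:181306459-181314500, minus strand, and Stmn4 is ENSMUSG00000022044, chr14:66344296-66361680, plus strand. Map1b is ENSMUSG00000052727, chr13:99421446-99516540, minus strand, Map2 is ENSMUSG00000015222, chr1:66175273-66442583, plus strand, Mapt is ENSMUSG00000018411, chr11:104231390-104332090, plus strand, and Tubb3 is ENSMUSG00000062380, chr8:123411424-123422015, plus strand. All are annotated as protein-coding, and the counts are per gene, so isoforms of Map2, Mapt or Dcx were not separated.

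The upstream sequences of 3 of the genes are shown because Map2 and Map1b were higher and Tubb3 was lower in every shYthdf2 library than in every shCtrl library. RefSeq windows of 250 bases before the start were matched for 5 of the 10 genes (Dcx, Map1b, Map2, Stmn3 and Tubb3) on the build GRCm38.p6. The printed part, 5′ to 3′ on the strand of the gene, leaves out bases that the annotation places inside the gene. It is chr1:66175079-66175272 on the plus strand for Map2, chr8:123411303-123411423 on the plus strand for Tubb3 and chr13:99516603-99516852 on the minus strand for Map1b. Capitals mark 3 short promoter words on either strand, of which the first is GGGCGG. The second word in capitals, where it occurs, is CCAAT. The third word that was capitalized is TATAAA.
Map2: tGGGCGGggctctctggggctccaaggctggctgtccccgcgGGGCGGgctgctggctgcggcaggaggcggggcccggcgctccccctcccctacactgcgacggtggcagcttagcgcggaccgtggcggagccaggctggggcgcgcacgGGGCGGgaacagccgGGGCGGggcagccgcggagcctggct
Tubb3: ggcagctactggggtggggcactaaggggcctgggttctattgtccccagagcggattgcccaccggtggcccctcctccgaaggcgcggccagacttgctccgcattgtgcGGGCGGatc
Map1b: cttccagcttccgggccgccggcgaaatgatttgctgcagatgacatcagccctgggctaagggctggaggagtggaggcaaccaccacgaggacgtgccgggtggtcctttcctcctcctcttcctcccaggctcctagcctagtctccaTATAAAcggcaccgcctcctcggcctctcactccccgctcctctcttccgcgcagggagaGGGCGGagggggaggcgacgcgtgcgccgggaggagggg

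Within the full windows of 250 bases, GGGCGG occurred 5 times in Map2, 2 times in Tubb3 and once in Map1b (4, 1 and 1 of these are in the printed part), beside a share of 32.7% of the 32851 RefSeq windows of the same length with at least 1 match. The Tubb3 window held 1 CCAAT, outside the printed part, found in 33.8% of all windows, and the Map1b window held 1 TATAAA, found in 12.4%. The E-box word CACGTG, the E-box word CAGCTG and the cAMP response word TGACGTCA, searched on both strands, occurred 0 times in these 3 windows. The G and C content was 81.2% for Map2, 68.0% for Tubb3 and 66.4% for Map1b, against a median of 52.4% over all windows. These matches describe letters only, since binding was not measured here.

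The word GGACT, a preferred site of m6A, was counted in the longest annotated transcript of each gene, because YTHDF2 binds m6A. Mapt held 1.90 and Tubb3 1.61 words per kilobase, above the median of 1.01 over all tested genes with a transcript, and the other 8 genes were below that median. Map2 held 0.32 per kilobase, Map1b 0.85, Dcx 0.88, Stmn4 0.73 and Stmn2 0.29, while Gap43, Stmn1 and Stmn3 held none. A word in a transcript does not show that the base is modified, and no m6A measurement is used here.

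The 10 genes together took 0.784% to 0.956% of all counts in the shCtrl libraries and 0.908% to 0.946% in the shYthdf2 libraries. Library totals ran from 17246821 to 21546595 counts in shCtrl and from 17646408 to 19533010 in shYthdf2. The lowest normalized count of a member in any library was 2935. Counting error, taken from the lowest raw count, was at most 1.92% (Stmn4, 2719 counts in shCtrl replicate 4), below the spread between libraries. On the scale of normalized counts scaled to 1000000 counts and divided by kilobases of annotated exon, the order of mean levels in shCtrl was Stmn3 (470 ± 181, SD, n = 3), Tubb3 (411 ± 46.7), Stmn1 (363 ± 71.4), Gap43 (331 ± 70.0) and Stmn2 (232 ± 69.7). Mapt (183 ± 13.9), Stmn4 (106 ± 42.9), Map1b (103 ± 8.32), Dcx (58.2 ± 6.45) and Map2 (51.3 ± 4.17) followed. The shCtrl ranges of neighbours in this order overlapped except between Mapt and Stmn4 and between Map1b and Dcx. The order depends on the length used, and with the longest transcript in place of all exons Stmn1 came first at 659 and Dcx last at 81.1.

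Replicate 2 stood apart from replicates 1 and 4 in both groups. The chi-square of the counts over genes, per degree of freedom, between replicates 1 and 4 was 4.64 in shCtrl and 3.34 in shYthdf2, while replicate 2 differed from them by 52.9 to 54.8 in shCtrl and by 32.9 to 35.0 in shYthdf2. Across the groups the replicate 2 libraries differed by 22.1, less than either did from its own group. The replicate 1 libraries differed by 53.3 across the groups and the replicate 4 libraries by 43.7. What sets replicate 2 apart is not given in the sources used here, nor whether replicates 1 and 4 came from separate cultures. Values are therefore given for all libraries and also without both replicate 2 libraries. Among the 10 genes, replicate 2 was the highest library of its group in both groups for 6, namely Gap43, the 4 stathmin genes and Tubb3.

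**Figure D1:**
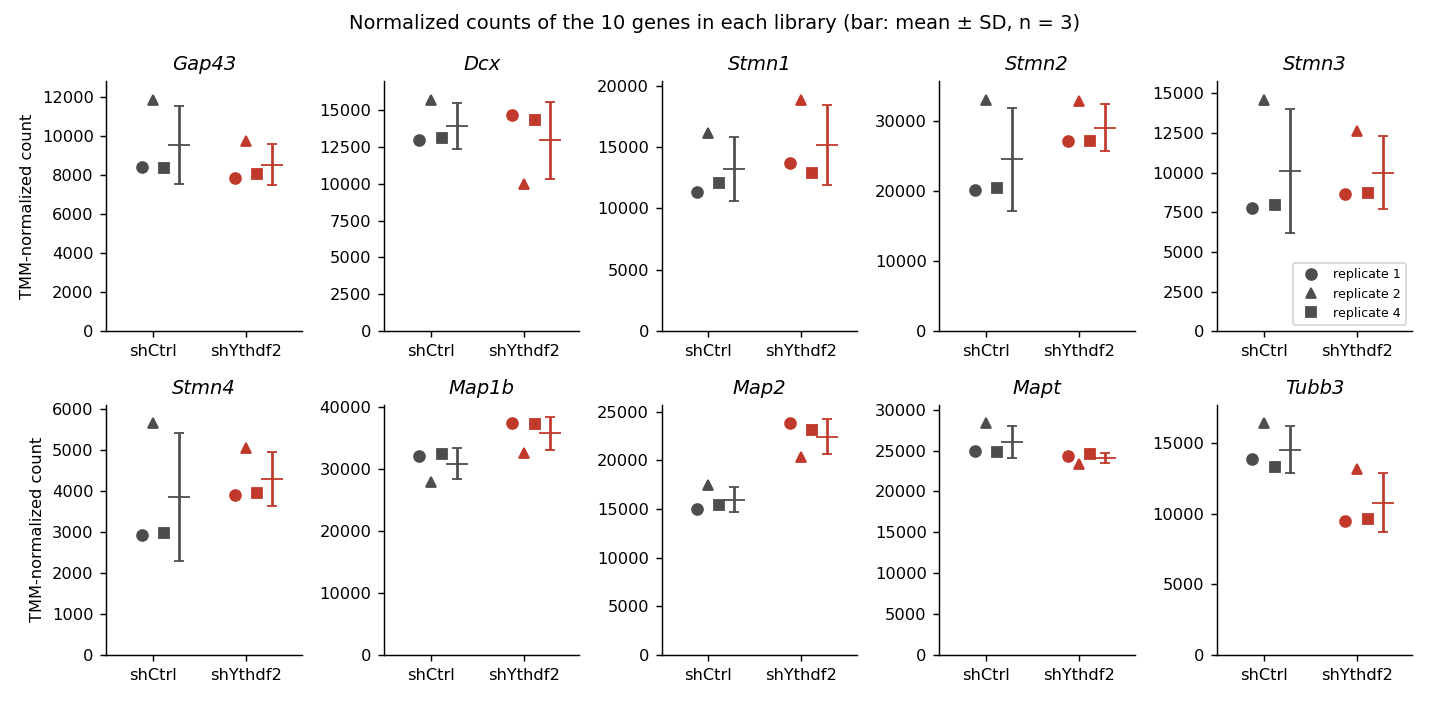
TMM-normalized counts (y axis, from 0) of the 10 genes in the shCtrl and shYthdf2 libraries (x axis), with 1 point per library, the symbol giving the replicate number and the bar beside the points giving mean ± SD (n = 3). Map1b and Map2 lie higher and Mapt and Tubb3 lower in every shYthdf2 library than in every shCtrl library, and the replicate 2 triangle is the top point of both groups for the 4 stathmin genes.

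Across the set, the comparison of all 6 libraries gave no common direction. Of the 10 genes, 5 had a positive and 5 a negative log2FC, with a median of 0.07 beside 0.01 over all 17214 genes tested. No gene passed an adjusted p of 0.05 in edgeR (0 of 10, where 0.604% of all genes tested passed), and limma-voom also called 0. An unadjusted p under 0.05 was reached by 2 of 10, Map2 and Tubb3, beside 20.1% of all genes. The ranges of shYthdf2 and shCtrl were apart for 4 of 10 beside 26% of all genes, with 2 higher (12.6% of all genes) and 2 lower (13.4%). The first of these shares is close to the background, and nothing is read from the second in so short a list, so the results that follow are about single genes.

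The largest positive difference of the 10 genes was in a microtubule-associated protein. Map2 codes for a protein that bundles and stabilizes microtubules, chiefly in dendrites and the cell body, and is a common marker of neurons. It had 23816, 20356 and 23173 normalized counts in the shYthdf2 libraries 1, 2 and 4 and 15049.6, 17453 and 15406 in shCtrl. All shYthdf2 libraries were above all shCtrl libraries, and the lowest shYthdf2 value and the highest shCtrl value were both those of replicate 2. The means were 22448 ± 1839.9 and 15969 ± 1297 (SD, n = 3), so the shYthdf2 mean was 141% of shCtrl. The log2FC was 0.49 (SE 0.11, 95% interval 0.22 to 0.76), with an adjusted p of 0.0872 from edgeR. The two-sided exact permutation test of the 3 against 3 libraries gave p = 0.1, the smallest value that its 10 splits allow. With DESeq2, Map2 passed the threshold (log2FC 0.49, adjusted p = 0.00454), where 7.67% of all genes did. Over the 15 alternatives its log2FC stayed between 0.44 and 0.62 and its adjusted p ran from 1.49e-10 to 0.361. The lowest came without both replicate 2 libraries, where 52.7% of all genes tested passed.

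Map1b, an early microtubule-binding protein of growing axons, was also higher in every shYthdf2 library. Its normalized counts were 37411, 32628 and 37278 in shYthdf2 and 32081, 27999.7 and 32525 in shCtrl. The groups were separated only narrowly, between replicate 2 of shYthdf2 and replicate 4 of shCtrl. The means were 35772 ± 2724 and 30868 ± 2494, and the log2FC of 0.21 (SE 0.12, 95% interval -0.06 to 0.48) had an adjusted p of 0.348 from edgeR. Between libraries of the same number the log2 difference was 0.22, 0.22 and 0.20 for replicates 1, 2 and 4, the closest agreement of the 3 numbers among the 10 genes.

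Mapt, which codes for tau, the microtubule-associated protein of axons, differed little. It had 24352, 23410.3 and 24615 normalized counts in shYthdf2 and 24975, 28350.4 and 24886 in shCtrl. The groups did not overlap, yet replicates 1 and 4 of the groups differed by -0.04 and -0.02 on the log2 scale against -0.28 in replicate 2. The log2FC was -0.11 (SE 0.10, 95% interval -0.35 to 0.13, edgeR adjusted p = 0.589).

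Dcx codes for doublecortin, which binds microtubules in migrating and young neurons, and its libraries were split by replicate number. It had 14629, 9946 and 14293 normalized counts in shYthdf2 and 12937, 15703 and 13130.1 in shCtrl. The shYthdf2 library of replicate 2 was the lowest and the shCtrl library of replicate 2 the highest of all 6. The log2 difference was 0.18, -0.66 and 0.12 for replicates 1, 2 and 4, and the log2FC over all libraries was -0.10 (SE 0.17, edgeR adjusted p = 0.768). Without replicate 2 of both groups it was 0.15 (SE 0.03, edgeR adjusted p = 0.000836), so its direction rests on replicate 2. In that fit 52.7% of all genes tested passed.

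Tubb3, the neuron-specific β-tubulin that is built into axonal microtubules, had the largest negative difference of the 10. It had 9488, 13174 and 9611 normalized counts in the shYthdf2 libraries 1, 2 and 4 and 13858, 16385 and 13281 in shCtrl. All shYthdf2 libraries were below all shCtrl libraries, though replicate 2 of shYthdf2 lay just under replicate 4 of shCtrl. The means were 10758 ± 2093 and 14508 ± 1651 (SD, n = 3), so that the shYthdf2 mean was 74.1% of shCtrl. The log2FC was -0.43 (SE 0.16, 95% interval -0.81 to -0.06) with an adjusted p of 0.195 from edgeR, and it stayed between -0.61 and -0.33 over the 15 alternatives, with adjusted p from 5.07e-09 to 0.523. The lowest again came without both replicate 2 libraries. Between libraries of the same number the log2 difference was -0.55, -0.31 and -0.47. The exact permutation test gave its smallest value, p = 0.1, for Tubb3 as for Map1b and Mapt.

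The ratio of 2 genes within a library does not depend on scaling between libraries, and was taken for Map2 and Tubb3 after their values had been seen. The Map2 count was 2.51, 1.55 and 2.41 times the Tubb3 count in the shYthdf2 libraries 1, 2 and 4 and 1.09, 1.07 and 1.16 times in shCtrl. The means were 2.16 ± 0.531 and 1.10 ± 0.0498 (SD, n = 3), without overlap. That lack of overlap was fixed beforehand, because Map2 was higher and Tubb3 lower in every shYthdf2 library. The shCtrl libraries, replicate 2 included, lay close together in this ratio, and the shYthdf2 libraries did not. The Map2 count was 0.978, 0.870 and 0.941 times the Mapt count in shYthdf2 and 0.603, 0.616 and 0.619 times in shCtrl, with means of 0.930 ± 0.0552 and 0.612 ± 0.00868. Mapt was also lower in every shYthdf2 library, so the separation of this ratio was likewise fixed beforehand.

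The stathmin genes varied more between replicate numbers than between groups. Stmn2 codes for a stathmin of growth cones and regenerating axons. It had 27099, 32916 and 27160.5 normalized counts in shYthdf2 and 20132, 33084 and 20443 in shCtrl. Replicates 1 and 4 were higher in shYthdf2, and the replicate 2 libraries of both groups were nearly equal and the highest of all. The log2 difference was therefore 0.43, -0.01 and 0.41 for replicates 1, 2 and 4, and the log2FC over all libraries was 0.24 (SE 0.21, 95% interval -0.25 to 0.74, edgeR adjusted p = 0.564).

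Stmn4, a membrane-bound stathmin of neurons, followed the same order of libraries, with 3890.0, 5039 and 3938 normalized counts in shYthdf2 and 2935, 5649 and 2979 in shCtrl. Its log2FC was 0.15 (SE 0.26, edgeR adjusted p = 0.782). Stmn3, its close neuronal relative, had 8644, 12648 and 8695 in shYthdf2 and 7787, 14601 and 7925 in shCtrl, with a log2FC of -0.02 (SE 0.28, edgeR adjusted p = 0.980) whose sign turned under 8 of the 15 alternatives, library size without a normalization factor among them (0.03). In shCtrl, replicate 2 was above the mean of the others by 0.93 for Stmn4, 0.89 for Stmn3 and 0.71 for Stmn2 on the log2 scale, beside 0.36, 0.54 and 0.28 in shYthdf2. These shifts within a group exceeded the fold change between the groups for each of the 3 genes.

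Stmn1, the founding stathmin, found also in dividing cells, had 13729, 18868 and 12862 normalized counts in shYthdf2 and 11360.2, 16172 and 12085 in shCtrl. It was higher in shYthdf2 in each of the 3 pairs of the same number (0.27, 0.22 and 0.09 on the log2 scale), while the groups as a whole overlapped. The log2FC was 0.20 (SE 0.19, edgeR adjusted p = 0.611), and it was 0.0074 without shYthdf2 replicate 2 and 0.37 without shCtrl replicate 2. Part of the Stmn1 transcript, 12.83% of its windows of 100 bases, also occurs in the pseudogene Gm11223, which held 414 to 669 counts per library beside at least 11029 for Stmn1, so reads could be split between them. The other 9 genes shared no such window with another gene.

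Gap43, a protein of the growth cone membrane that is high in growing and regenerating axons, was lower in shYthdf2 in each pair but overlapped between the groups. It had 7837, 9728 and 8026 normalized counts in shYthdf2 and 8403, 11858 and 8329.7 in shCtrl. The log2 difference was -0.10, -0.29 and -0.05 for replicates 1, 2 and 4, and the log2FC was -0.16 (SE 0.17, 95% interval -0.55 to 0.23, edgeR adjusted p = 0.638). These intervals leave room for differences in either direction, so equal levels in the groups are not shown.

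**Figure D2:**
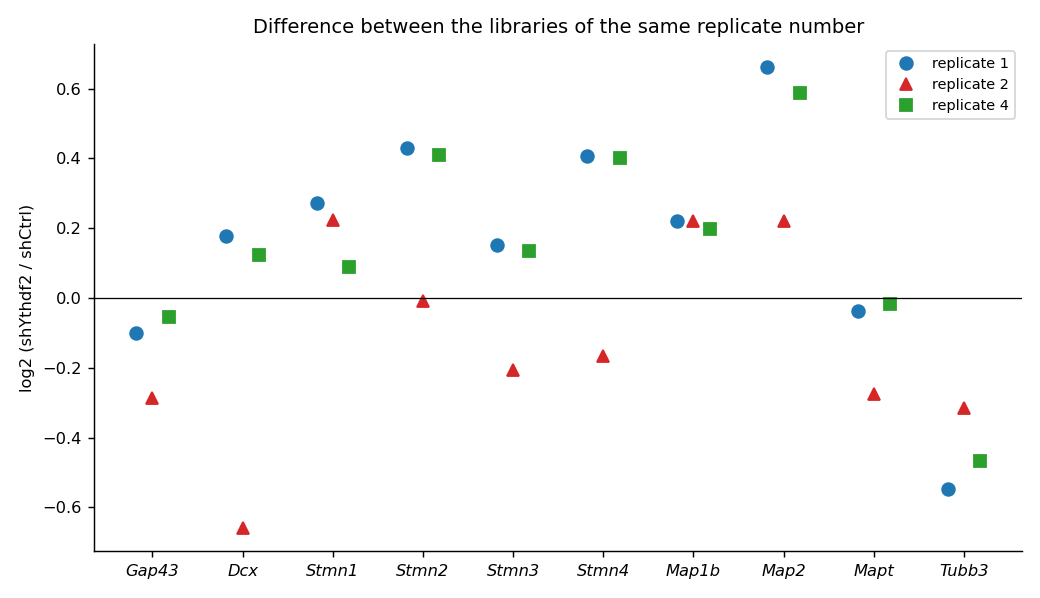
Log2 ratio of the shYthdf2 to the shCtrl library of the same replicate number (y axis) for each of the 10 genes (x axis), with 1 point per replicate number and a line at 0. Stmn1, Map1b and Map2 are above 0 and Gap43, Mapt and Tubb3 below 0 in all 3 pairs, while Dcx, Stmn2, Stmn3 and Stmn4 have replicate 2 on the other side of 0 from replicates 1 and 4.

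Between libraries of the same number, 3 genes were higher in shYthdf2 in all 3 pairs (Stmn1, Map1b, Map2), 3 were lower in all 3 (Gap43, Mapt, Tubb3) and 4 were mixed (Dcx, Stmn2, Stmn3, Stmn4). The share of all genes tested with the same sign in all 3 pairs was not computed, so nothing is read from these counts. The median difference of the 10 genes was 0.20 in replicate 1, -0.19 in replicate 2 and 0.13 in replicate 4, beside 0.01, 0.00 and 0.00 over all genes tested. Replicate 2 therefore went the opposite way to replicates 1 and 4 in the median of the set.

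Calls for single genes depended on how replicate 2 was treated. Without the shYthdf2 library of replicate 2, edgeR called Map2 (1 of 10, beside 4.7% of all genes tested), with a log2FC of 0.56 and an adjusted p of 0.0462. Without the shCtrl library of replicate 2, it called Stmn2, Stmn4 and Map2 (3 of 10, beside 18.3%), with log2FC values of 0.52, 0.54 and 0.56. With both replicate 2 libraries left out, 8 of 10 were called beside 52.7% of all genes tested, so a call there is common to most genes. Of these, 7 were higher (Dcx, the 4 stathmin genes, Map1b and Map2, beside 25.8% of all genes) and 1 was lower (Tubb3, beside 27%), while Gap43 and Mapt were not called. In that fit the log2FC was 0.62 for Map2, 0.42 for Stmn2, 0.40 for Stmn4 and -0.51 for Tubb3, with SEs of 0.03, 0.03, 0.03 and 0.03. These SEs come from replicates 1 and 4 alone, which differed little within a group, and do not cover the spread to replicate 2. With a term for replicate 2 in the fit of all libraries, Stmn1, Map1b, Map2 and Tubb3 were called (4 of 10, beside 22.1%).

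**Figure D3:**
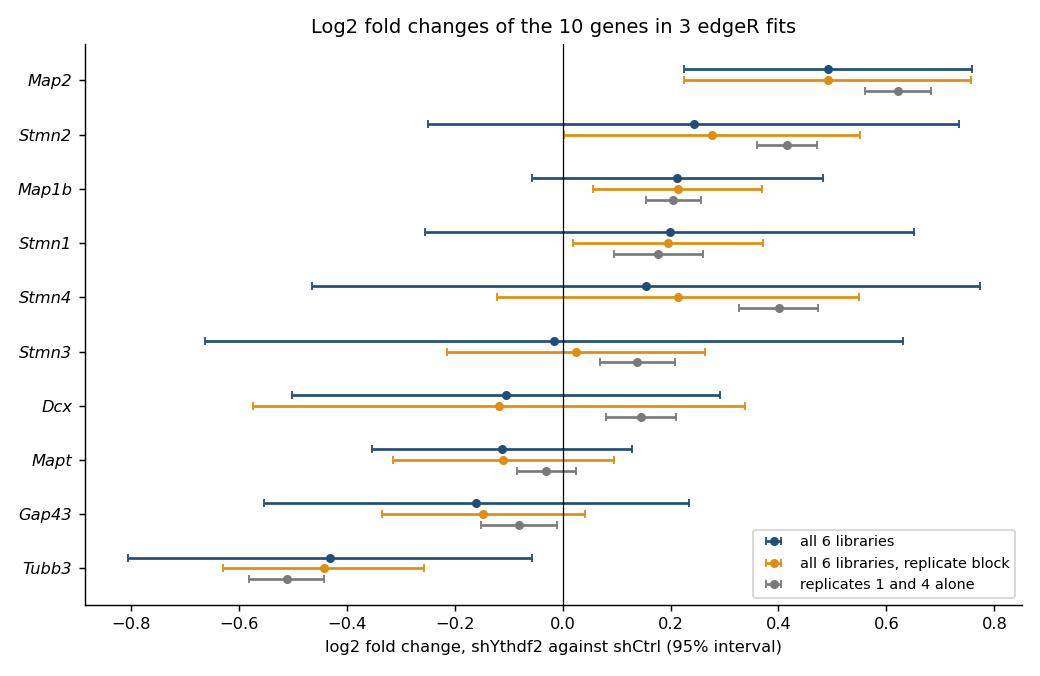
Log2 fold change of shYthdf2 against shCtrl (x axis, points with 95% intervals) for the 10 genes (y axis) in 3 edgeR fits, with all 6 libraries, with the replicate number as a block and with replicates 1 and 4 alone. With all 6 libraries and no block, only the intervals of Map2 and Tubb3 lie off 0, and the intervals of replicates 1 and 4 alone are much narrower.

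Most sums of cell type markers overlapped between the groups, and several shifted with replicate 2. In bulk RNA, fewer cells of a type and less RNA per cell cannot be told apart. In all libraries the granule cell label went with high counts of Rbfox3 (9742 to 10473 normalized counts), a marker of mature neurons, and Neurod1 (14806 to 19216), a transcription factor of granule cells. Of the other markers of mature granule cells, Cbln1 and Kcnd2 (8448 to 10599) were also high. Gabra6 (407 to 1354), Cbln3 (275 to 2234), Grin2c (231 to 455) and Etv1 (756 to 1845) were lower. The summed markers of mature granule cells, 8 genes, were 49537 to 53551 in shYthdf2 and 56451 to 67177 in shCtrl, and those of proliferating progenitors, 7 genes, were 189 to 211 and 98.6 to 175, both without overlap. The lower granule cell sum went with Cbln1 (12047 to 12308 in shYthdf2, 15677 to 25430 in shCtrl) and Neurod1, while 5 of the 8 markers had a positive log2FC and the median of the 8 was 0.15. The summed markers of GABAergic interneurons, 5 genes, were 7546 to 9121 in shYthdf2 and 6307 to 6896 in shCtrl, also without overlap. A share over all genes was not computed for such sums.

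Glial and vascular markers were present beside the neuronal ones. The summed oligodendrocyte markers, 8 genes of which all had positive log2FC values, were 12888, 16902 and 13252 in the shYthdf2 libraries 1, 2 and 4 and 5003, 16642 and 4773 in shCtrl. Replicates 1 and 4 were higher in shYthdf2 and replicate 2 was the highest library of both groups, which also holds for each of the 4 stathmin genes. The same pattern held for the summed markers of proliferating progenitors, GABAergic interneurons, unipolar brush cells, and vascular cells and fibroblasts. It is therefore not particular to oligodendrocyte markers. The summed markers were 10895 to 11339 against 8033 to 13100 for astrocytes and Bergmann glia (8 genes), 377 to 1095 against 178 to 759 for microglia (7 genes) and 2857 to 7168 against 2205 to 5685 for vascular cells and fibroblasts (8 genes), in shYthdf2 and shCtrl. For Purkinje cells (5 genes) they were 807 to 1094 against 926 to 948, and for unipolar brush cells (4 genes) 4213 to 5701 against 3843 to 5315. The unipolar brush cell sum was mostly Calb2, and 2 of its 4 genes had a negative log2FC. Of these, Eomes had 359, 640 and 325 in shYthdf2 and 1747, 1172 and 1696 in shCtrl. Among the 8 astrocyte markers, 7 had a positive log2FC. The other, Slc1a2, had 931, 1019 and 875 in shYthdf2 and 3024, 1571 and 3072 in shCtrl. Of the markers, P2ry12 of microglia was at 0 counts in 2 shCtrl libraries and Cldn5 of blood vessels in 5 of the 6 libraries, and no marker was at 0 in all. Of the 56 markers tested, 0 passed the adjusted threshold in edgeR (0.604% of all genes did), 9 had an unadjusted p under 0.05 (20.1% of all genes), DESeq2 called 8 (7.67% of all genes) and limma-voom called 0. The part of these cell types in the differences of Map2, Tubb3 and the stathmin genes was not tested.

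**Figure D4:**
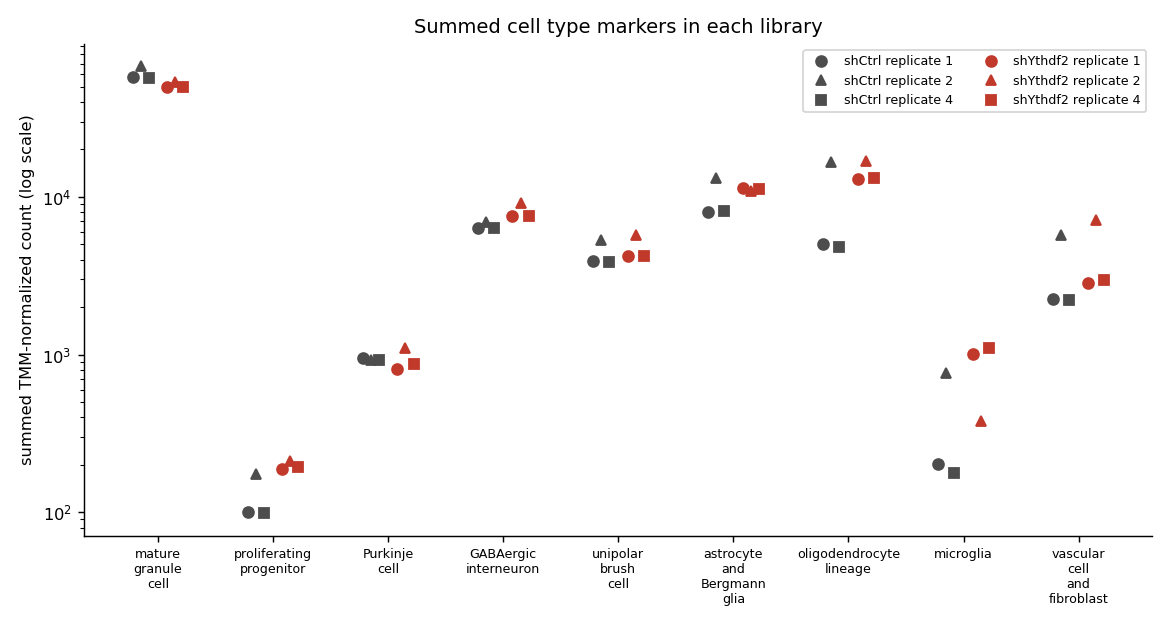
Summed TMM-normalized counts (y axis, log scale) of 9 lists of cell type markers (x axis), with 1 point per library, the colour giving the group and the symbol the replicate number. The oligodendrocyte sum is 4773 and 5003 in shCtrl replicates 4 and 1 and 12888 to 16902 in the other 4 libraries.

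Of 121 other genes of the microtubule and growth cone machinery in 8 lists, 116 passed the filter on low counts and were tested. With all libraries 0 were called by edgeR at an adjusted p of 0.05 (0.604% of all genes), while 36 had an unadjusted p under 0.05, 11 higher (9.5% of all genes) and 25 lower (10.6%), and DESeq2 called 15 (12.9% of the 116, beside 7.67% of all genes) and limma-voom 0. Their median log2FC was -0.08, with 43 positive and 73 negative, and 14 were higher (beside 12.6% of all genes) and 27 lower (beside 13.4%) without overlap of the groups. With the replicate number as a block, 3 were called, all lower, namely Map7d1, Clip3 and Marcksl1, beside 1.35% of all genes tested.

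Of the other tubulin isotypes, 11 of 13 were tested, 9 had negative log2FC values and the median was -0.21. Tubb5, a broadly expressed β-tubulin, had 17034, 23089 and 17589 normalized counts in shYthdf2 and 27387, 25391 and 26584 in shCtrl. Like Tubb3 it was lower in every shYthdf2 library, with a log2FC of -0.46 (SE 0.14, edgeR adjusted p = 0.140). The lists of other microtubule-associated proteins (26 of 27 tested) and of plus-end tracking proteins and their relatives (13 of 13) had medians of -0.03 and 0.03. Plus-end tracking proteins bind the growing end of the microtubule.

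Among the other microtubule-associated proteins, the positive and negative extremes without overlap were Mid1, a ubiquitin ligase on microtubules, and Map1s, a relative of Map1b. Mid1 had 93.9, 105 and 95.3 normalized counts in shYthdf2 and 51.3, 44.4 and 63.6 in shCtrl, with a log2FC of 0.89 (edgeR adjusted p = 0.0989). Map1s had 1421, 1578 and 1522 and 2852, 1806 and 2669, with a log2FC of -0.70 (edgeR adjusted p = 0.0976), opposite in sign to Map1b. Map7d1, a partner of kinesin on microtubules, had a log2FC of -0.69 (adjusted p = 0.0527 in edgeR, 0.0445 with the block).

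Clip3, placed in the plus-end list by its CLIP family name, was the negative extreme of that list among genes without overlap. Whether its protein binds growing microtubule ends was not measured here. It had 12402, 12646 and 13024 normalized counts in shYthdf2 and 17996, 19800.4 and 18024 in shCtrl, and was lower in every shYthdf2 library. Its log2FC was -0.55 (SE 0.10, edgeR adjusted p = 0.0552, and 0.0450 with the block). Ckap5, a microtubule polymerase, was the positive extreme by the same rule, at 0.21 (edgeR adjusted p = 0.253).

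Of the 17 motor genes, 12 had negative log2FC values and the median was -0.08. Klc2, a kinesin light chain, had 3429, 3507 and 3535 normalized counts in shYthdf2 and 5073, 4488 and 4904 in shCtrl, at -0.47 (edgeR adjusted p = 0.0625), and Kif3a, a kinesin motor and the positive extreme without overlap, was at 0.19 (adjusted p = 0.367). Among 16 tested genes of microtubule severing and tubulin modification, with a median of 0.05, the extremes without overlap were Ttll7, which adds glutamate to β-tubulin, at 0.52 (edgeR adjusted p = 0.163), and Vash1, which removes the last tyrosine of α-tubulin, at -0.29 (adjusted p = 0.143). Of the 12 kinases that act on microtubule-associated proteins, and their activators, 9 were negative, with a median of -0.14. Mark4, which phosphorylates tau and Map2, was at -0.60 (edgeR adjusted p = 0.137), and Cdk5r1, an activator of Cdk5, was at 0.57 (adjusted p = 0.212).

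The 5 neurofilament genes, which code for the other main filament of the axon, all had negative log2FC values, with a median of -0.30, beside a median of 0.01 over all genes. They ran from -0.17 to -1.36, and only Prph, named after its values were seen, had groups apart. Prph was low, at 35.5, 15.5 and 24.3 normalized counts in shYthdf2 and 85.8, 45.4 and 62.5 in shCtrl. In replicate 2 the other neurofilament genes were higher in shYthdf2 than in shCtrl. Nefl had 2037 against 1898 there, Nefm 1200 against 1076, Nefh 50.3 against 38.6 and Ina 9751 against 9545. Of the other growth cone proteins, 16 of 17 were tested, 10 were negative and the median was -0.13. Cap2, a regulator of actin, had 232, 323 and 204 normalized counts in shYthdf2 and 585, 431 and 626 in shCtrl, at -1.11 (edgeR adjusted p = 0.0651), and Dbn1, which codes for the actin-binding protein drebrin, was at 0.38 (adjusted p = 0.220). Marcksl1, a membrane and actin-binding protein, was at -0.65 (edgeR adjusted p = 0.0587, and 0.0450 with the block).

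**Figure D5:**
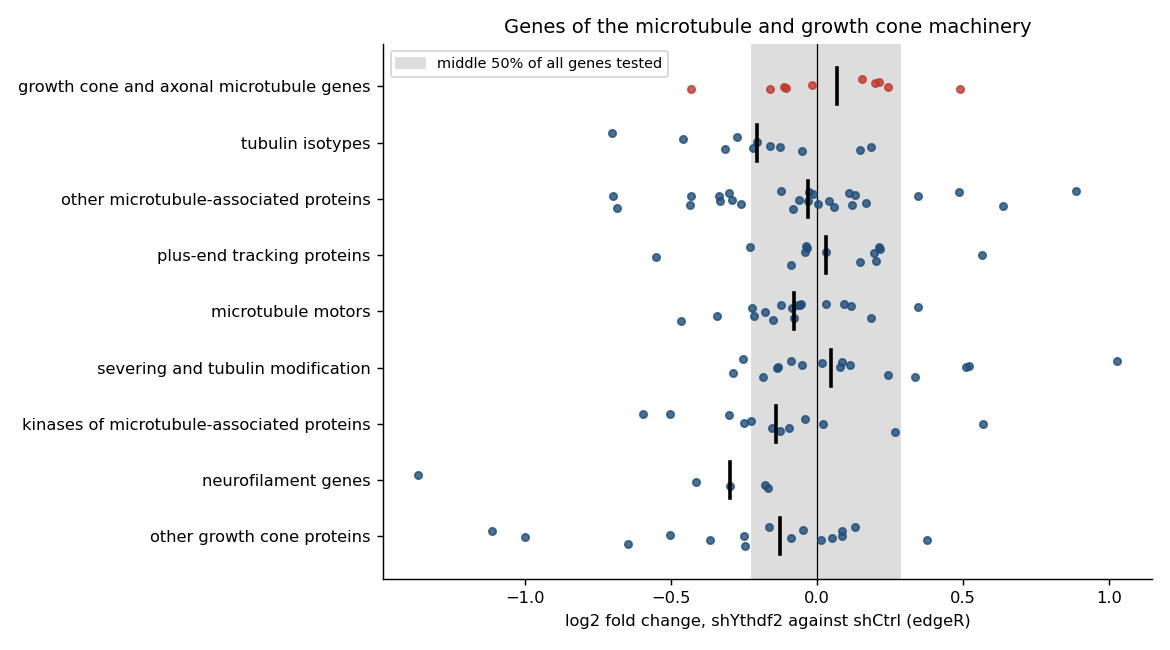
Log2 fold change of shYthdf2 against shCtrl (x axis) for the genes of each list (y axis), with 1 point per gene tested, a black bar at the median of the list and a grey band over the middle 50% of all genes tested. The 10 growth cone and axonal microtubule genes, in red, run from -0.43 to 0.49 with a median of 0.07, and the 5 neurofilament genes are all below 0.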

How the data were processed

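Libraries were grouped by their library names. Per the paper's methods, the authors filtered reads, aligned them with HISAT and TopHat2 (GRCm38) and made gene counts with HTSeq, while the submitters' processing notes name Bowtie 0.12.2 and mm9. Whether counting used strand is not given in the sources used here. The deposited values are whole-number counts without normalization.

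After filterByExpr by group (min.count 10, min.total.count 15) 17214 genes were left, and these were normalized by TMM and tested with edgeR 4.0.16 in R 4.3.3 (quasi-likelihood test), with Benjamini-Hochberg adjustment over all genes tested. Alternatives were the RLE method, no normalization factor at all, limma-voom (limma 3.58.1), DESeq2 1.42.0, a filter that drops only genes without counts, a floor of 10 counts per library, the replicate number as a block, a term for replicate 2, each library left out in turn and both replicate 2 libraries left out. Levels per length used the exons of the GRCm38 annotation (GENCODE), and upstream sequences came from RefSeq. The edgeR fits with and without the replicate block, limma-voom and DESeq2 were also run on simulated counts. Those counts held no shift of replicate 2, so they do not bear on how replicate 2 was treated.

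Replicate numbers were taken to pair the libraries because deviations from the group means correlated between same-numbered libraries (r = 0.252, 0.360 and 0.321 for replicates 1, 2 and 4, across genes, which are not independent replicates). Between replicates 1 and 4 across the groups r was also positive, at 0.126 and 0.101. By chi-square, shYthdf2 replicate 1 was closer to shCtrl replicate 4 (47.1) than to shCtrl replicate 1 (53.3). Matching within replicates 1 and 4 is therefore less sure than for replicate 2. From each of the 8 lists, the genes named were those past the adjusted threshold and the largest positive and negative difference among genes whose groups did not overlap and whose mean normalized count reached 50. Map7d1, Marcksl1 and Prph were named after their values were seen, as were the ratios of genes within a library. The members and lists were chosen with earlier results of these data known. No column of the table was left out. Library totals of 17246821 to 21546595 counts set the counting error, and SDs also cover differences between libraries.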

Additional observations from a re-analysis of the deposited data

How the results depend on the processing

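Of 150 log2 fold changes of the 10 genes under the 15 alternatives, 122 kept their sign and their side of the threshold, 15 kept their sign and passed it, and 13 changed sign. With 1 library or both replicate 2 libraries left out, log2 fold changes ran from -0.27 to 0.028 for Gap43, from -0.20 to 0.15 for Dcx, from -0.22 to 0.35 for Stmn3 and from -0.014 to 0.54 for Stmn4, and for Stmn1 without a change of sign from 0.0074 to 0.37. The positive values of Gap43 (without shCtrl replicate 2) and Dcx (0.053 without shYthdf2 replicate 2, 0.15 without both replicate 2 libraries) and the negative values of Stmn4 (without shCtrl replicate 1 or 4) were reversals. Stmn3 was also reversed without a normalization factor (0.025), with limma-voom (0.026), with the replicate block (0.026), with the term for replicate 2 (0.025), and without shYthdf2 replicate 1 (0.078) or 4 (0.076), shCtrl replicate 2 (0.35) or both replicate 2 libraries (0.14). The cause was not tested.

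The number of the 10 genes called higher was 1 with DESeq2 and 3 with the term for replicate 2, against 0, and 1 was called lower with the latter. With libraries left out it ran from 0 to 7 higher and from 0 to 1 lower. Of the 116 other genes, 4 were called higher and 11 lower with DESeq2, 1 and 6 with no filter except a total count above 0, 13 and 28 with the term for replicate 2 (10.4% and 11.6% of all genes), and 0 to 29 and 0 to 54 with libraries left out (29 and 54 without both replicate 2 libraries, beside 25.8% and 27% of all genes, 11 and 18 without shCtrl replicate 2, beside 9.42% and 8.84%, and 1 and 7 without shYthdf2 replicate 2, beside 1.87% and 2.82%). With the replicate block, 3 of these were called lower and none of the 10 genes was called, and 5 of the 10 had an unadjusted p under 0.05 beside 31.6% of all genes (edgeR). The lowest adjusted p in that fit was 0.0550, for Tubb3. Ythdf2 passed the threshold with DESeq2 (log2 fold change -0.58, adjusted p = 0.0392), with the term for replicate 2 (-0.56, edgeR adjusted p = 0.0465) and without both replicate 2 libraries (-0.32, edgeR adjusted p = 0.00124), within adjusted p from 0.00124 to 0.363 over the alternatives. The number of genes called over the whole table went from 104 to 3799 with the term for replicate 2 and to 9186 without both replicate 2 libraries, and to 0 in each of the 4 fits that left out replicate 1 or 4 of a group. Those 4 fits reached an unadjusted p under 0.05 for 11.2% to 11.9% of genes.

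Levels per length moved by more than 1 SD of the shCtrl libraries with the length of the longest transcript for 7 of the 10 genes, with Map2 at 135 for its longest transcript against 51.3 for all exons in shCtrl. Where a library was left out, the spread was estimated from the remaining 5 or 4. Counting error was at most 1.92% for the 10 genes, so the number of libraries limits their precision more than depth.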
